A study of Mus musculus with 8 samples.

Results

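Most of the genes described here carry bicarbonate, protons and chloride across membranes or interconvert carbon dioxide and bicarbonate. The others include inactive relatives of the carbonic anhydrases (Car8, Car10 and Car11), the scaffold proteins Slc9a3r1 and Slc9a3r2, and the binding protein Slc4a1ap. All were chosen by name: every gene of the Slc4, Slc9, Slc12 and Car families whose symbol has a digit after the family name. They are 48 of the 34620 gene names in the table. A test required an average of 1 normalized count or more over the 8 libraries, and 42 of the 48 met it, among 19789 genes tested in all. These were all 11 Slc4 names, 11 of 12 Slc9 names, 8 of 9 Slc12 names and 12 of 16 Car names. RNA of the hippocampus was compared with RNA of the prefrontal cortex (PFC), with 4 libraries per region. Each library held the pooled tissue of 2 untreated male mice of the strain C57Bl6, as the labels spell it (C57BL/6J in the study's methods), which were aged 7 to 9 weeks by the labels and 8 to 12 weeks by the study's account of the RNA preparation. The labels name no mutation, transgene or agent, and region was the only difference between the groups. The study used 8 mice in all but does not give the pool behind each library, so the regions were not paired, and p-values weigh the spread between pools.

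Neurons and glia set their internal pH by moving bicarbonate and protons. Sodium-coupled bicarbonate transporters of the Slc4 family load base, Slc9 exchangers remove protons in return for sodium, and carbonic anhydrases, which most Car genes encode, supply both ions by hydrating carbon dioxide. The Slc12 cotransporters set the chloride gradient on which the GABAA receptor works: Slc12a2 (NKCC1) brings chloride in, and Slc12a5 (KCC2), found in neurons, takes it out. In the choroid plexus, the epithelium that secretes cerebrospinal fluid, many of the same genes serve fluid transport.

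Sequencing depth differed within regions. Between 3164964 and 16636500 reads were assigned to genes per hippocampus library and between 4689377 and 10625194 per PFC library. A count of 3 reads, the limit that a count of 0 allows, corresponds to 1.30 normalized counts in the deepest library and 6.93 in the shallowest, and this limit covers counting error only. The members together took 0.249% to 0.282% of the normalized counts of a library. Labels were checked against marker genes. All 5 markers of CA pyramidal neurons and all 5 of dentate granule neurons were higher in the hippocampus, and 8 of 10 markers of cortical layer neurons were higher in the PFC. The PFC libraries also held more of all 10 markers of striatal projection neurons, with summed levels of 2785 to 5466 normalized counts against 1416 to 1698 in the hippocampus. PFC replicates 1 and 2 differed from replicates 3 and 4 in hippocampal and oligodendrocyte markers, and the values are given beside the members below. In bulk tissue, fewer cells of a type and less RNA per cell cannot be told apart.

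Of the 42 tested members, 7 were higher in the hippocampus and 3 were higher in the PFC at an adjusted p under 0.05 (limma, Benjamini-Hochberg over all 19789 genes). The shares over all genes were 2.55% higher in the hippocampus, 3.13% higher in the PFC and 5.68% in either direction. The members higher in the hippocampus were Slc9a4, Slc4a5, Car12, Slc9a2, Slc4a7, Slc12a2 and Slc4a4, and those higher in the PFC were Car10, Slc9a5 and Slc12a5. Between the regions 14 members had an unadjusted p under 0.05, where 16.9% of all genes did. The libraries of the regions did not overlap for 12 members, namely the 10 above together with Car13 and Car4, where the share over all genes was 11.8%. Of these 8 lay higher in the hippocampus (5.54% of all genes) and 4 in the PFC (6.27%). Among the called members 6 changed by more than 2-fold (Slc9a4, Slc4a5, Car12, Slc9a2, Slc9a5 and Car10), where 1.92% of all genes were called with such a change. The median log2 fold change of the tested members was 0.02 and that of all genes was 0.00. Fold changes here are on the log2(normalized count + 1) scale, hippocampus over PFC, which understates the change of genes with few counts.

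**Figure D1:**
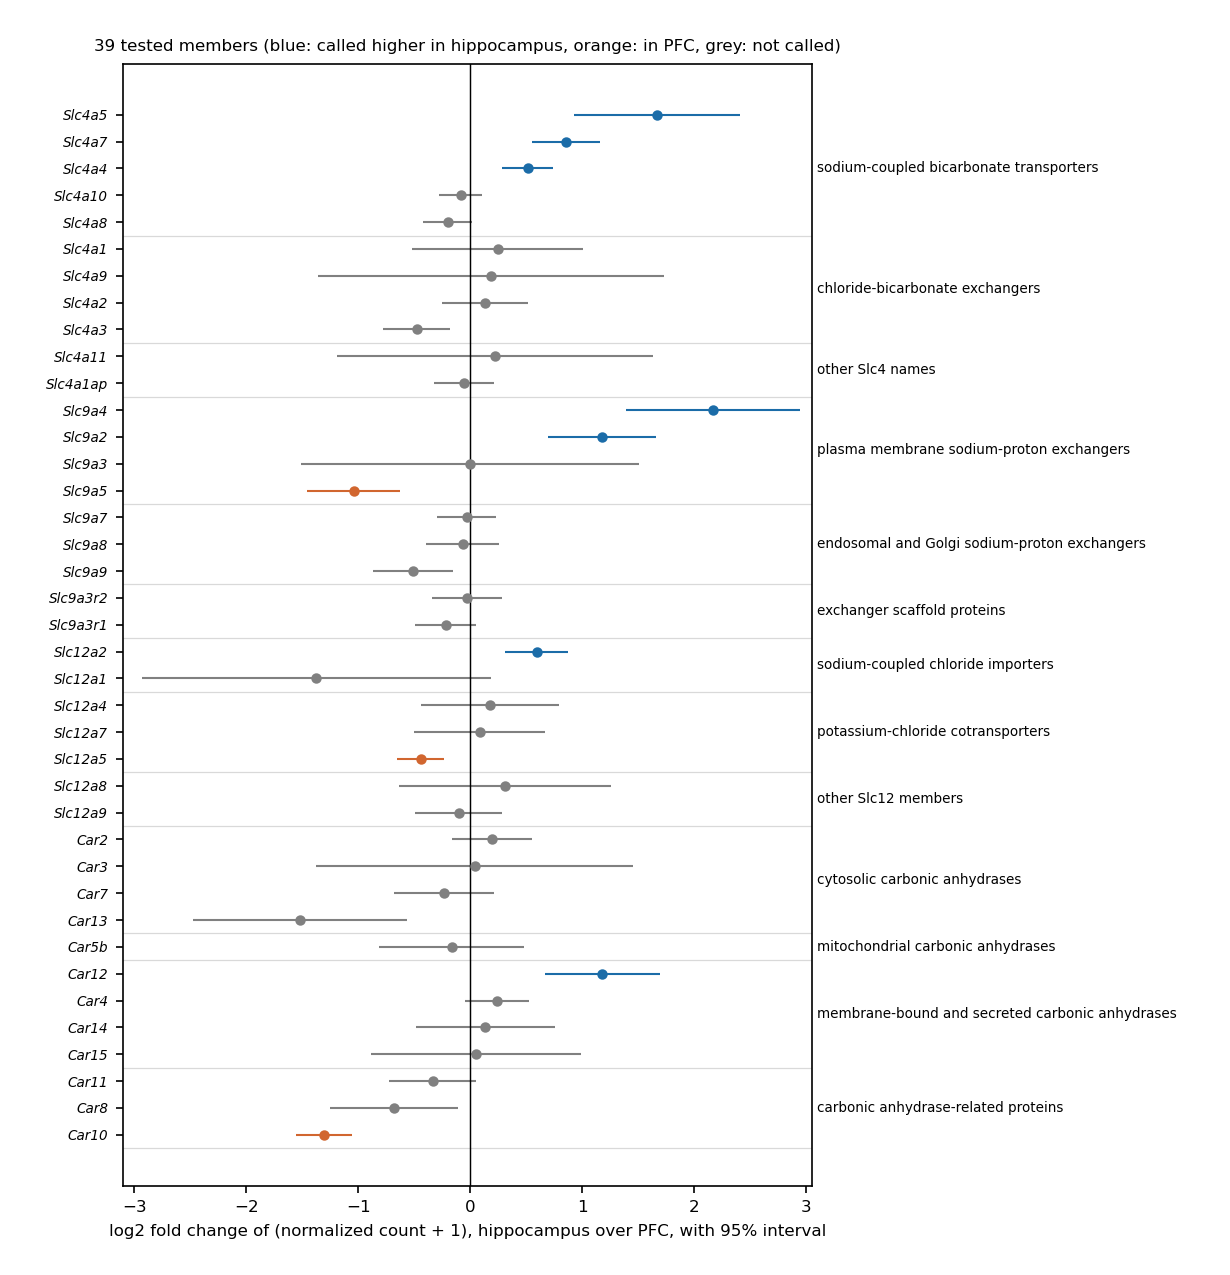
Log2 fold change of 39 of the 42 tested members (horizontal axis, hippocampus over PFC, with its 95% interval), grouped by role on the vertical axis. The 7 members in blue passed the threshold toward the hippocampus, with Slc9a4 farthest at 2.17, and the 3 in orange passed toward the PFC, with Car10 farthest at -1.31, while the 29 drawn in grey did not pass.

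The sequences that bear on these members are shown first. Promoters of the 3 members most raised in the hippocampus among those in the table of RefSeq promoters are printed from 250 bases before to 50 after the annotated start on GRCm38.p6, a later build than the one used for counting. Capitals mark the letters of a TATA box, TATAAA. They also mark the GC box, which was searched as GGGCGG, and both were searched on either strand. The marked motifs do not overlap within a window, and each match is a description of letters only.
Slc4a5, chr6:83237125-83237424, plus strand: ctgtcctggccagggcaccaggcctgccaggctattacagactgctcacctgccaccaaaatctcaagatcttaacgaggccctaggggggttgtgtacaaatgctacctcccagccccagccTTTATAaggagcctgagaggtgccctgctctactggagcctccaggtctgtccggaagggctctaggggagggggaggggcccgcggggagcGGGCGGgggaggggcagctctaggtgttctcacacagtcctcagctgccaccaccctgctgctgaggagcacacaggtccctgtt
Slc4a7, chr14:14718534-14718833, plus strand: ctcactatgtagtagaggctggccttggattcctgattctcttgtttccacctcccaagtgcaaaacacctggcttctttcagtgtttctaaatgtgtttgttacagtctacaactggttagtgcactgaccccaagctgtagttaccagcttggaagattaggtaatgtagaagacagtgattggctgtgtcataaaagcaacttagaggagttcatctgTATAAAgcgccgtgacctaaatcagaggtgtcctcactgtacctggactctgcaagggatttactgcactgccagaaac
Car12, chr9:66713436-66713735, plus strand: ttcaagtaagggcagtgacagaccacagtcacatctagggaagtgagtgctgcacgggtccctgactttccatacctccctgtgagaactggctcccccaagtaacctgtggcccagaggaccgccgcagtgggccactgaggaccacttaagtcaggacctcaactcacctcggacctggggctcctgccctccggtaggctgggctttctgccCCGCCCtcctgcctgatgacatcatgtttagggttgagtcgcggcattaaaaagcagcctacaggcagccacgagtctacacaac

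The Slc4a5 window held a TATAAA as its reverse complement 127 bases before the start and a GC box 35 bases before it. Slc4a7 had a TATAAA 29 bases before its start and no GC box, and Car12 had a GC box as its reverse complement 35 bases before its start. The GC content was 62.7% for Slc4a5, 45.0% for Slc4a7 and 58.3% for Car12, against a median of 52.7% over 32851 promoters. Of those promoters 13.6% held TATAAA and 35.7% held GGGCGG on either strand. The letters TGACGTCA (a cAMP response element, in 1.79% of promoters) and CACGTG (an E-box, in 7.15%) were searched in the same way and were in none of the 3 windows. Windows of 33 of the 48 members were in the table, and Slc9a4 and Slc9a2 were not among them.

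**Figure D2:**
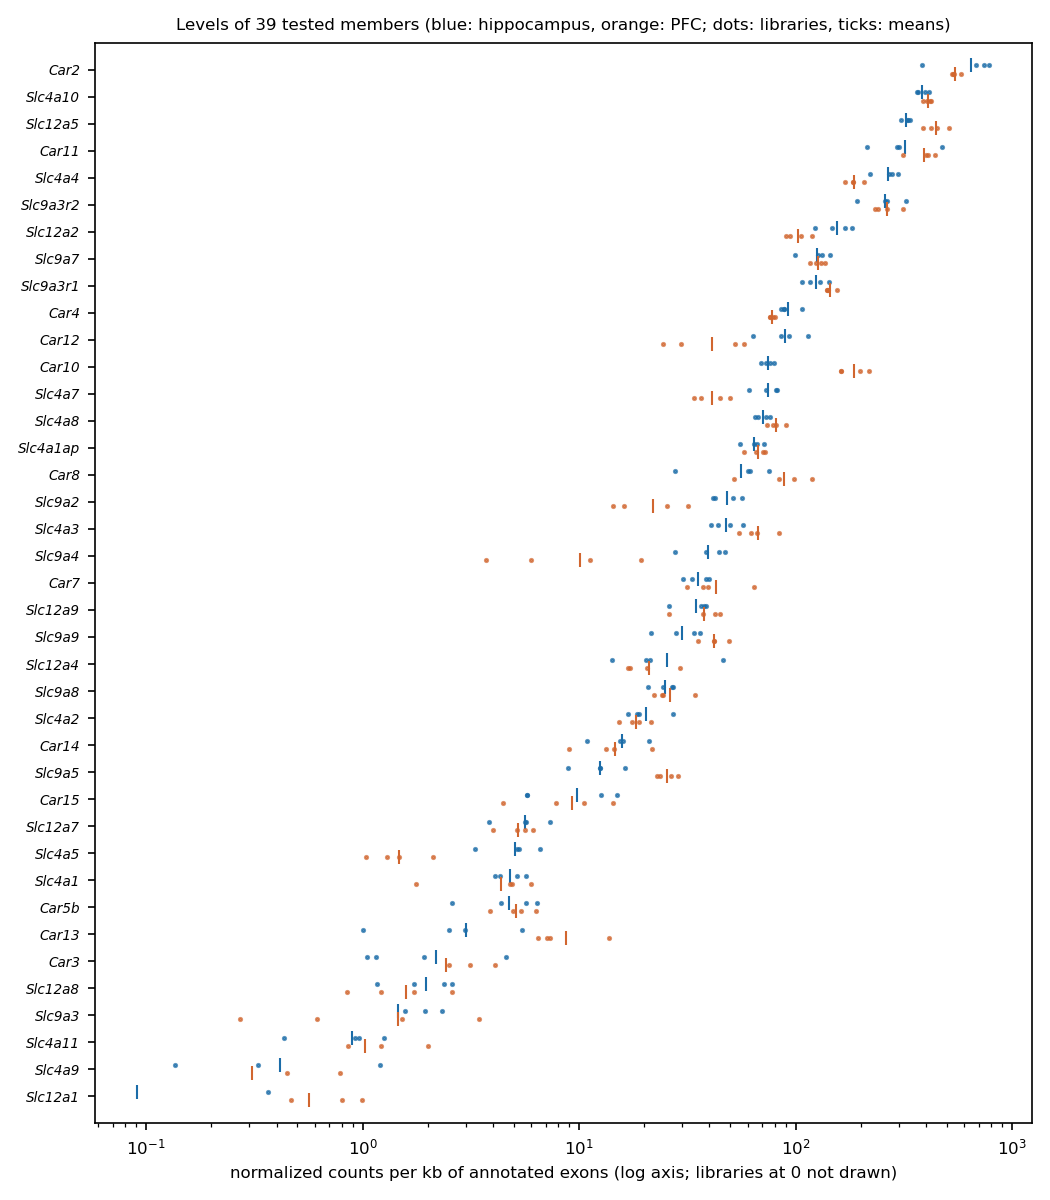
Level of 39 tested members in normalized counts per kb of annotated exons (horizontal log axis), with a dot per library and a tick at the mean of each region (blue for the hippocampus, orange for the PFC). Car2 stood highest in both regions, at 648 and 546 per kb. Slc12a1 stood lowest in the hippocampus and Slc4a9 in the PFC.

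Levels of different genes were compared per kb of annotated exon. Car2, the abundant cytosolic carbonic anhydrase of oligodendrocytes and choroid plexus, ranked 1 in both regions, with mean levels of 648 normalized counts per kb in the hippocampal libraries and 546 in those of the PFC. Slc4a10, a sodium-coupled bicarbonate transporter of neurons and choroid plexus, ranked 2 in the hippocampus at 385 per kb and ranked 3 in the PFC at 408. Slc12a5 ranked 3 in the hippocampus at 325 per kb and 2 in the PFC at 444. Car11, a catalytically inactive relative of the carbonic anhydrases, ranked 4 in both regions at 320.4 and 390.5 per kb. Slc4a4 stood at 267 and 186 per kb and Slc9a3r2, a scaffold protein that binds sodium-proton exchangers, at 259.9 and 263. Slc12a2 ranked 7 in the hippocampus at 155 per kb and 12 in the PFC at 102. Most neighbours in this order overlapped in single libraries, 39 of 41 pairs in the hippocampus and 36 of 41 in the PFC. The lowest hippocampus library of Car2, at 385 per kb, lay within the range of Slc4a10 (363 to 415). Among the 6 leading pairs of each region, those that lay apart were Slc4a10 above Slc12a5 and Slc9a3r2 above Slc12a2 in the hippocampus, and Car2 above Slc12a5 and Slc9a3r2 above Slc4a4 in the PFC.

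The remaining 6 names lay below the filter. Car5a, a mitochondrial enzyme of liver, and Slc9a10, an exchanger of sperm, had no read in any library. Slc12a3, the thiazide-sensitive cotransporter of the kidney, had 2 reads over the hippocampus libraries and 0 over the PFC libraries, and Car6, the secreted enzyme of saliva, had 2 in each region. Car9, a membrane-bound enzyme induced by hypoxia, had 10 reads in the hippocampal libraries and 4 in those of the PFC, and Car1, the enzyme of red blood cells, had 1 and 6. These reads were too few to show a difference at this depth.

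Among the 5 sodium-coupled bicarbonate transporters, 3 rose in the hippocampus (Slc4a4, Slc4a7 and Slc4a5), none rose in the PFC, and the median log2 fold change was 0.52. Slc4a4 (NBCe1, the electrogenic cotransporter of astrocytes) lies at chr5:89315843-89668678 on NCBIM37, the build of the files, on the plus strand. Its normalized counts were 2912, 2395, 3214 and 3022 in hippocampus replicates 1 to 4 and 1998, 2235, 1985 and 1830.4 in PFC replicates 1 to 4. Every hippocampus library lay above every PFC library, although hippocampus replicate 2 and PFC replicate 2 came close. The means were 2886 ± 350.2 (SD, n = 4) and 2012 ± 167, a log2 fold change of 0.52 (SE 0.11, adjusted p 0.0078, limma).

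Slc4a7 (NBCn1, an electroneutral sodium-bicarbonate cotransporter) is at chr14:15535539-15632457, plus strand. It measured 613, 461, 555 and 624 normalized counts in the hippocampal libraries and 378, 339, 256 and 277 in those of the PFC. The regions did not overlap, and hippocampus replicate 2 was again the lowest of its region. Its mean of 563 ± 74.5 (SD, n = 4) in the hippocampus was 1.80 times the 313 ± 56.0 of the PFC, with a log2 fold change of 0.85 (SE 0.14, adjusted p 0.0015, limma). It ranked 217 of all genes by p.

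Slc4a5 (NBCe2, an electrogenic cotransporter known from the apical membrane of the choroid plexus) had the largest fold change of the family on few reads, 177 over the hippocampus libraries and 29 over the PFC libraries. The gene is at chr6:83169822-83254939, plus strand. Levels were 30.7, 19.2, 38.3 and 30.0 normalized counts in the hippocampal libraries and 12.3, 7.53, 8.59 and 6.05 in those of the PFC. All 4 PFC libraries lay under the lowest hippocampus library, replicate 2. The means of 29.6 ± 7.85 and 8.62 ± 2.66 (SD, n = 4) gave a log2 fold change of 1.67 (SE 0.35, adjusted p 0.0079, limma). Without hippocampus replicate 3 the log2 fold change was 1.53 and the adjusted p 0.050001 (limma), just above the threshold, so the call was lost.

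The other sodium-coupled transporters did not pass. Slc4a10 (NBCn2) had normalized counts of 2663, 2329, 2353 and 2548 in the hippocampal libraries and 2491, 2688, 2704 and 2590.3 in those of the PFC. Its regions overlapped, and the 95% interval of the log2 fold change ran from -0.27 to 0.11. Slc4a8 (NDCBE, a sodium-driven chloride-bicarbonate exchanger of nerve terminals) averaged 916 ± 66.3 and 1055 ± 89.3 normalized counts (SD, n = 4), with an interval from -0.42 to 0.01.

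None of the 4 chloride-bicarbonate exchangers passed the test. Slc4a3 (AE3), the most abundant of them and the form known from neurons, had normalized counts of 376, 492, 349 and 427 in the hippocampal libraries and 536, 469.6, 573 and 724 in those of the PFC. Only hippocampus replicate 2 and PFC replicate 2 crossed over. The log2 fold change was -0.48 (SE 0.14, adjusted p 0.064, limma), and with DESeq2 the adjusted p was 0.029. Slc4a2 (AE2, an exchanger of epithelia) averaged 126 and 114 normalized counts, and Slc4a1 (the band 3 protein of red blood cells) 23.5 and 21.3. Exons of Slc4a2 overlap Fastk on the opposite strand, and counting ignored strand, so its count is uncertain. Slc4a9 (AE4) had 7 and 3 reads. Outside these groups, Slc4a1ap (kanadaptin, named for its binding to band 3) had 339.7, 264, 306 and 314 normalized counts in the hippocampal libraries and 275, 313, 345 and 336 in those of the PFC, with full overlap. Slc4a11, a transporter of the corneal endothelium, had 24 and 20 reads.

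The 5 sodium-proton exchangers of the plasma membrane moved in both directions: Slc9a4 and Slc9a2 rose in the hippocampus, Slc9a5 rose in the PFC, and the other members of the group did not pass. Slc9a4 (NHE4, best known from the stomach and the kidney) had the largest fold change of the called members. Its normalized counts were 181, 106, 147 and 169 in hippocampus replicates 1 to 4 and 73.8, 42.7, 22.9 and 14.1 in PFC replicates 1 to 4. No library overlapped between the regions, while the PFC libraries differed among themselves by more than the hippocampus libraries did relative to their mean. The means were 150.5 ± 33.0 and 38.4 ± 26.4 (SD, n = 4), a ratio of 3.92, and the log2 fold change was 2.17 (SE 0.37, adjusted p 0.0017, limma).

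Slc9a2 (NHE2, an exchanger of gut and kidney epithelia) measured 197, 148, 179 and 146 normalized counts in the hippocampal libraries and 89.1, 112, 50.1 and 56.5 in those of the PFC. Again the regions lay apart, with PFC replicates 1 and 2 the nearest to the hippocampus. Its means of 168 ± 25.0 and 76.9 ± 28.8 (SD, n = 4) gave a log2 fold change of 1.18 (SE 0.23, adjusted p 0.0049, limma). Both genes share a locus: Slc9a4 occupies chr1:40637072-40687576 and Slc9a2 chr1:40738557-40825730, both on the plus strand with 50980 bases between them. Other genes within 300 kb were also read from the same fit, and they are named after their values were seen. Il1r1, the receptor of interleukin-1 on the same strand, was higher in the hippocampus, at 137 ± 21.4 against 74.3 ± 14.8 normalized counts (SD, n = 4; log2 fold change 0.88, SE 0.19, adjusted p 0.0089, limma). Mfsd9, next to Slc9a2 on the other strand, had 30.7 ± 2.95 and 36.2 ± 9.76 (log2 fold change -0.20, adjusted p 0.79). Each of the remaining annotated genes of this window had a mean under 5 normalized counts.

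Slc9a5 (NHE5, an exchanger of neurons) went the other way. At chr8:107872158-107893781, plus strand, it had normalized counts of 64.9, 84.7, 65.1 and 46.2 in the hippocampal libraries and 119.9, 123, 139 and 149.96 in those of the PFC. The lowest PFC library stood well above the highest hippocampus library, replicate 2. With means of 65.2 ± 15.7 and 133 ± 14.1 (SD, n = 4), the PFC level was 2.04 times the hippocampus level, and the log2 fold change was -1.04 (SE 0.20, adjusted p 0.0037, limma). Slc9a3 (NHE3, of gut and kidney) had 25 and 11 reads.

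Exchangers of internal membranes did not pass in either direction (0 of 4). Slc9a7 of the trans-Golgi averaged 479 and 486, and Slc9a8 of the Golgi 226 and 239. The nearest to the threshold was Slc9a9 (NHE9, of late endosomes), at 170.0 ± 36.9 and 239 ± 31.6 normalized counts (SD, n = 4), a log2 fold change of -0.51 (SE 0.17, adjusted p 0.099, limma). Neither scaffold protein passed. Slc9a3r2 (NHERF2) had 596, 733, 585 and 432 in the hippocampal libraries and 710.1, 539.9, 526 and 597 in those of the PFC, and Slc9a3r1 (NHERF1) averaged 239 and 277.

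**Figure D3:**
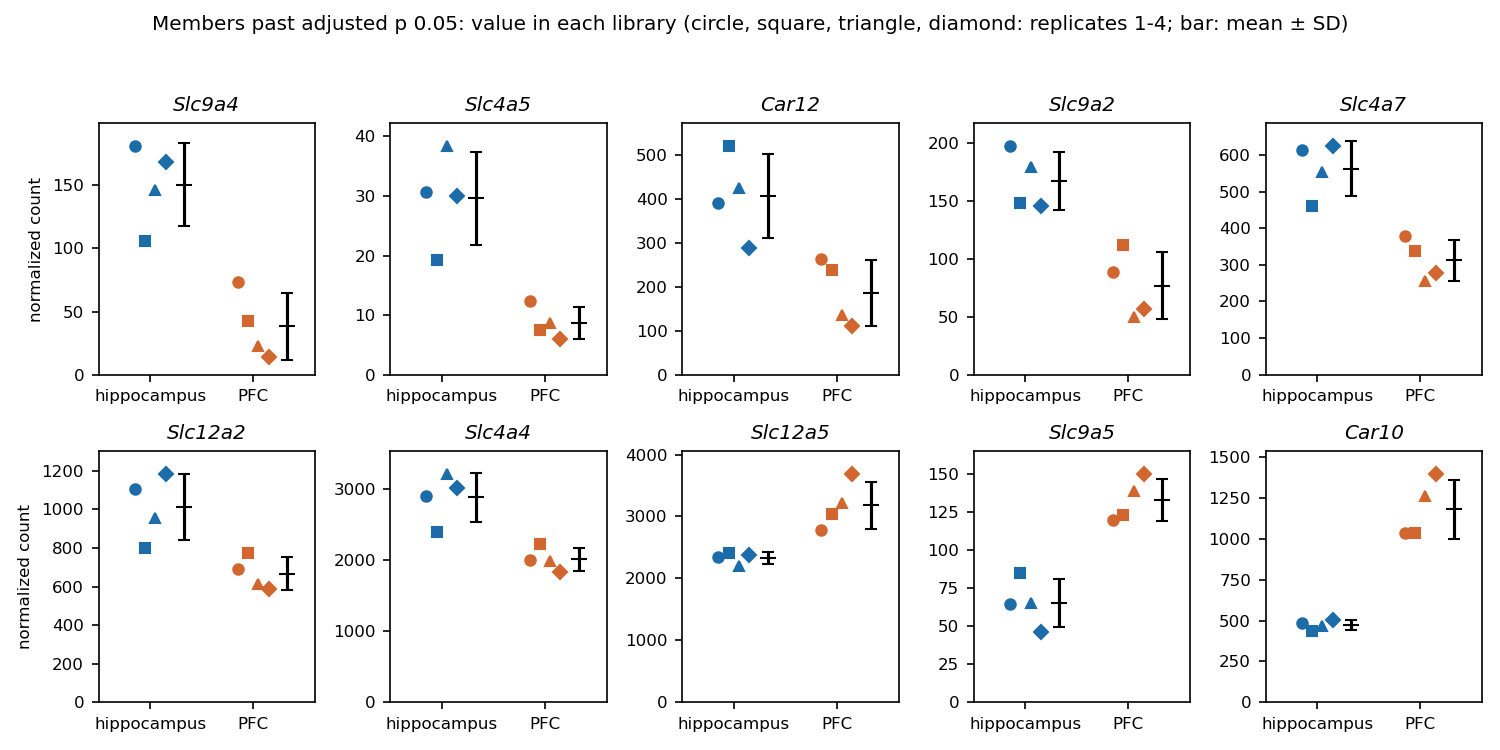
Normalized count of each member past the threshold (vertical axis, from 0) in every library of the hippocampus (blue) and the PFC (orange), with marker shapes for replicates 1 to 4 and bars for the mean ± SD of 4 libraries. The regions do not overlap for any of the 10 members. Slc9a4, for example, spans 106 to 181 in the hippocampus and 14.1 to 73.8 in the PFC.

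The chloride cotransporters Slc12a2 and Slc12a5 were called in opposite directions. Slc12a2 lies on chromosome 18 and had normalized counts of 1107, 798, 955 and 1183 in hippocampus replicates 1 to 4 and 692, 776, 613 and 586 in PFC replicates 1 to 4. Hippocampus replicate 2 was only slightly above PFC replicate 2, and the other libraries were well apart. The means were 1011 ± 171 and 667 ± 85.6 (SD, n = 4), with a log2 fold change of 0.59 (SE 0.13, adjusted p 0.012, limma). Its call was lost without PFC replicate 3 (adjusted p 0.063) and without PFC replicate 4 (0.062).

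Slc12a5, at chr2:164786316-164825228 on the plus strand, had 2339, 2415, 2196 and 2379 normalized counts in the hippocampal libraries and 2788, 3039.5, 3225 and 3684 in those of the PFC. The hippocampus libraries were tightly grouped, and all PFC libraries were higher. With means of 2332 ± 95.9 and 3184 ± 379 (SD, n = 4), the PFC level was 1.37 times the hippocampus level, and the log2 fold change was -0.44 (SE 0.10, adjusted p 0.013, limma). Of the called members it had the largest adjusted p. Leaving out hippocampus replicate 3, PFC replicate 3 or PFC replicate 4 gave an adjusted p of 0.057, 0.06 or 0.057. Of its 7178 exon bases 188 are shared with Gm11459 on the same strand, which itself had means under 2 normalized counts.

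Within a library the ratio of Slc12a5 to Slc12a2 does not depend on the scaling between libraries. It was 2.11, 3.03, 2.30 and 2.01 in hippocampus replicates 1 to 4 and 4.03, 3.92, 5.26 and 6.29 in PFC replicates 1 to 4. All 4 PFC ratios exceeded all 4 hippocampus ratios, with hippocampus replicate 2 and PFC replicate 2 nearest to each other. The means were 2.36 ± 0.459 and 4.88 ± 1.12 (SD, n = 4), and per kb of exon they were 2.15 ± 0.417 and 4.43 ± 1.02. The ratio combines a pair of genes already tested and is given as a description. It compares RNA of bulk tissue, in which the cells that held either RNA were not resolved. It is therefore not a measure of the chloride balance of neurons.

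**Figure D4:**
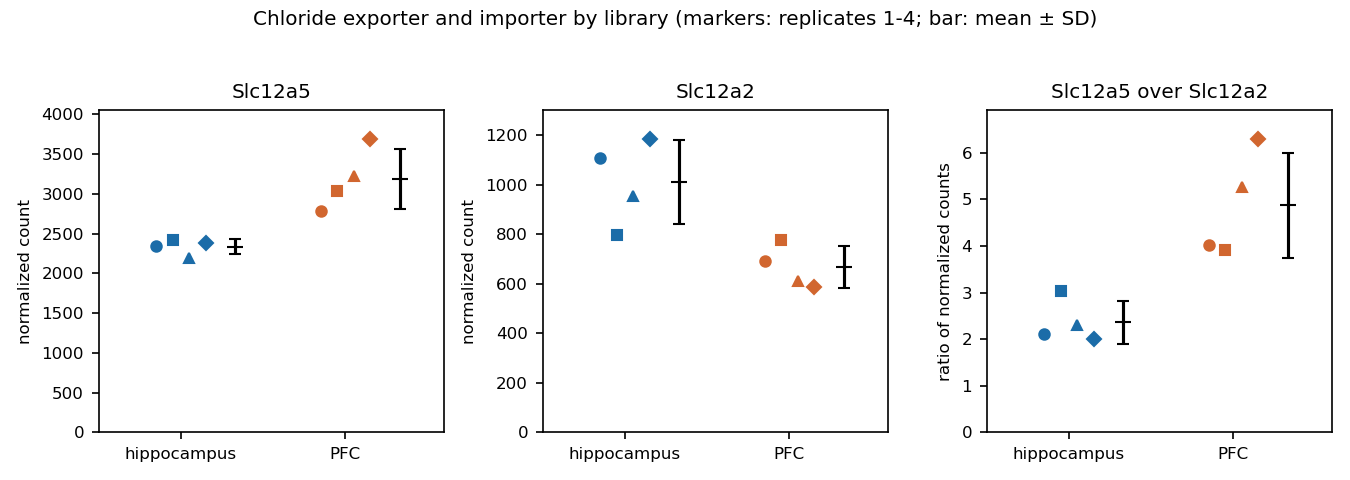
Normalized counts of Slc12a5 and Slc12a2 and their ratio (vertical axes, from 0) in each library of the hippocampus (blue) and the PFC (orange), with marker shapes for replicates 1 to 4 and bars for the mean ± SD of 4 libraries. The ratio ran from 2.01 to 3.03 in the hippocampus and from 3.92 to 6.29 in the PFC.

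Of the other potassium-chloride cotransporters, none passed. Slc12a4 (KCC1) averaged 109 and 89.1, and Slc12a7 (KCC4) 32.3 and 30.0. The renal importer Slc12a1 (NKCC2) had 4 and 11 reads. Slc12a9, a relative whose transported ion is unsettled, had 183, 131, 193 and 189 normalized counts in the hippocampal libraries and 214, 187, 130.3 and 225 in those of the PFC, and Slc12a8 had 45 and 24 reads.

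Among the 12 tested Car genes, Car12 rose in the hippocampus and Car10 in the PFC. The known enzymes hold zinc with 3 histidines. Codons at these 3 positions (codons 94, 96 and 119 of Car2) were read from the GENCODE M1 transcripts on NCBIM37 after alignment of each gene to Car2, because they separate the enzymes from the related proteins Car8, Car10 and Car11. For each gene the earlier stretch covers the first pair of positions and the later stretch the remaining position, with the aligned codons in capitals (CAC and CAT encode histidine).
Car2, earlier stretch: cagtttCACtttCACtggggc
Car2, later stretch: gctgcagagcttCACttg
Car12, earlier stretch: cagctgCACttgCACtggggg
Car12, later stretch: gctgccgagctgCACatt
Car8, earlier stretch: gaagttAGAtttCACtgggga
Car8, later stretch: cccatggagctcCACctg
Car10, earlier stretch: gaaatcCGGctaCACtttggg
Car10, later stretch: tccggggaggtaCAActc
Car11, earlier stretch: gaactgCGCctgCTAtttgga
Car11, later stretch: tccgctgaggtgCAGcta

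In Car12, Car2 and the other tested enzymes, 9 genes in all, the 3 codons encode histidine. Car8 kept 2 of the 3, Car10 kept 1 and Car11 kept 0. The amino acid identity to Car2 over the aligned codons was 37.5% for Car12, 43.3% for Car8, 33.2% for Car10 and 33.3% for Car11.

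Car10, a secreted protein that binds neurexins at synapses, gave the smallest p of all members and ranked 12 of all 19789 genes. It spans chr11:92959342-93463063 on the plus strand. Its normalized counts were 485, 439, 464 and 504 in hippocampus replicates 1 to 4 and 1031, 1032, 1259 and 1394 in PFC replicates 1 to 4. Every PFC library was more than 2-fold above every hippocampus library, with replicates 3 and 4 the highest. The means of 473 ± 27.9 and 1179 ± 179 (SD, n = 4) gave a log2 fold change of -1.31 (SE 0.12, adjusted p 7.1e-06, limma). With each library left out in turn the adjusted p stayed between 3.3e-08 and 0.00022.

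The other related proteins did not pass. Car8, which binds the inositol trisphosphate receptor Itpr1, averaged 216 ± 77.3 and 340.3 ± 109 normalized counts (SD, n = 4), with an interval of -1.25 to -0.10 and an adjusted p of 0.19 (limma). Car11 had 617 ± 211 and 752 ± 107. Hippocampus replicate 2 held its highest value, 914, and without that library its log2 fold change was -0.54 with an adjusted p of 0.0048 (limma).

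Car12, a membrane-bound enzyme whose active site faces outward, lies at chr9:66561493-66614652 on the plus strand. It had normalized counts of 389, 519, 425 and 289 in the hippocampal libraries and 263, 237, 135 and 110.3 in those of the PFC. The lowest hippocampus library, replicate 4, was just above the highest PFC library, replicate 1. The means were 405 ± 94.99 and 186 ± 75.1 (SD, n = 4), a log2 fold change of 1.18 (SE 0.24, adjusted p 0.0069, limma). Car4, an enzyme tethered to the surface of capillary endothelium, had 181 ± 19.5 and 153 ± 4.47, and its regions did not overlap, yet the adjusted p was 0.42. Car14 and Car15, also membrane-bound, averaged 40.2 and 37.3, and 12.5 and 11.9. Exons of Car14 overlap Aph1a on the opposite strand, and 1052 of the 1283 exon bases of Car15 are shared with Gm20518, so both are uncertain.

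Car2 itself was not called. Its libraries gave 1327, 689, 1213 and 1405 normalized counts in the hippocampal libraries and 956, 963, 1043 and 947 in those of the PFC. Hippocampus replicate 2 was lower than every PFC library, while the other hippocampus libraries were higher than all of them. The log2 fold change was 0.19 (SE 0.17, adjusted p 0.66, limma) with all libraries and 0.43 (adjusted p 0.0018) without hippocampus replicate 2. Car13, a cytosolic enzyme, had 12.5, 5.77, 6.83 and 2.31 normalized counts in the hippocampal libraries and 16.9, 16.3, 31.5 and 14.8 in those of the PFC. No library overlapped, and on 49 and 68 reads the log2 fold change was -1.52 (SE 0.45, adjusted p 0.063, limma). Car13 and Car2 lie with Car3 and Car1 on chromosome 3 between 14641727 and 14900769. Car3 had 13 and 14 reads. Car7, a cytosolic enzyme of neurons, averaged 87.0 and 106 normalized counts. Car5b, the mitochondrial form, had 35.9, 16.4, 40.4 and 27.7 in the hippocampal libraries and 24.6, 31.4, 40.1 and 34.3 in those of the PFC.

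Partners of these transporters were read from lists drawn from general knowledge. None of 9 tested kinases and partners of the WNK-SPAK pathway, which phosphorylates the Slc12 cotransporters, passed the test, and the list's median log2 fold change was 0.05. Of 7 exchanger cofactors and IRBIT proteins 1 passed, Ahcyl2, a relative of the protein IRBIT that activates Slc4a4. Ahcyl2 had 1717 ± 110 normalized counts in the hippocampal libraries and 1202 ± 159 in those of the PFC (SD, n = 4), a log2 fold change of 0.52 (SE 0.11, adjusted p 0.0077, limma). Among 9 Slc26 anion transporters 2 rose in the hippocampus and none rose in the PFC, where the shares over all genes were 2.55% and 3.13%. Slc26a4 (pendrin) had 98.2 ± 20.0 and 48.5 ± 18.6 (log2 fold change 1.07, adjusted p 0.029) and Slc26a10 had 54.9 ± 12.9 and 25.2 ± 11.01 (1.16, adjusted p 0.037), the latter with overlapping regions. With each library left out in turn, both lost the call in 5 of 8 fits. With no filter beyond 1 read both lost it as well (adjusted p 0.056 and 0.073, limma). Slc26a10 also lost it with the replicate number as a block (0.087).

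Of 4 tested subunits of the volume-regulated anion channel, Lrrc8b was higher in the PFC, at 559 ± 53.3 against 766 ± 43.1 normalized counts (log2 fold change -0.46, adjusted p 0.016, limma). It lost the call without hippocampus replicate 1 or 4 and without PFC replicate 3 or 4. The call was also lost with the replicate number as a block (adjusted p 0.069, limma) and with PFC replicates 1 and 2 left out (0.069). None of 8 CLC channels and exchangers, 6 proton-linked monocarboxylate transporters and 22 subunits of the V-type proton ATPase passed, and their median log2 fold changes were -0.02, 0.11 and -0.19. The sodium gradient that drives the sodium-coupled members is made by the sodium-potassium ATPase. Of its 9 subunits 2 rose in the PFC, where 3.13% of all genes did. The regulatory subunit Fxyd7 had 110.2 ± 16.4 and 170.2 ± 30.0 (log2 fold change -0.62, adjusted p 0.041, limma) and lost the call in 6 of 8 fits with a library left out. Its call was also lost with no filter beyond 1 read (adjusted p 0.054, limma), with the replicate block (0.11) and with PFC replicates 1 and 2 left out (0.071).

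Marker genes of several cell types moved with the members, and their part in these results was not tested. Choroid plexus markers were higher in the hippocampus for 10 of 16 genes and none was higher in the PFC. Their summed level was 12665, 7377, 10453 and 12124 normalized counts in hippocampus replicates 1 to 4 and 5869, 6285, 4562 and 3345 in PFC replicates 1 to 4. The lowest hippocampus library, replicate 2, was also the lowest for Slc4a5, Slc4a4, Slc4a7, Slc12a2, Slc9a4 and Car2, and it was the highest for Car12. The most abundant markers, Ttr and Enpp2, averaged 5863 and 4151 in the hippocampal libraries and 1616 and 3191 in those of the PFC, and oligodendrocytes also make Enpp2. No marker of the list was at 0 in all libraries of a region, and 4 were at 0 in some library. Ependymal markers were called higher in the hippocampus for 3 of 6 genes, with sums of 203 to 251 against 96.2 to 139.9.

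Oligodendrocyte markers were higher in the hippocampus for all 10 tested genes, with sums of 111020.1 to 119414 normalized counts against 79322, 76899, 56748 and 53960.5 in PFC replicates 1 to 4. Dentate granule neuron markers, led by Prox1 and Dsp, summed to 3699, 4272, 4655 and 3858 in hippocampus replicates 1 to 4. In PFC replicates 1 to 4 they summed to 1944, 1819, 985 and 500.3. CA pyramidal neuron markers summed to 4728 to 5667 in the hippocampus and to 3312, 3214, 2219 and 1902 in the same order. PFC replicates 1 and 2 thus held more of these 3 lists than replicates 3 and 4, as they did of the choroid plexus, ependymal and astrocyte lists, and less of the striatal and cortical layer lists. In these same libraries Slc9a4, Slc9a2, Car12, Slc4a7, Slc12a2 and Slc4a4 were higher, and Slc12a5, Slc9a5 and Car10 were lower, than in PFC replicates 3 and 4. Slc4a5, with 12.3 and 7.53 against 8.59 and 6.05, did not split in this way. Cortical layer markers summed to 4088 to 4828 in the hippocampus and 9443 to 12636 in the PFC. With PFC replicates 1 and 2 left out, a choice made after seeing the data, all 10 calls were kept and Slc4a3 was added (log2 fold change -0.66, adjusted p 0.047, limma).

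**Figure D5:**
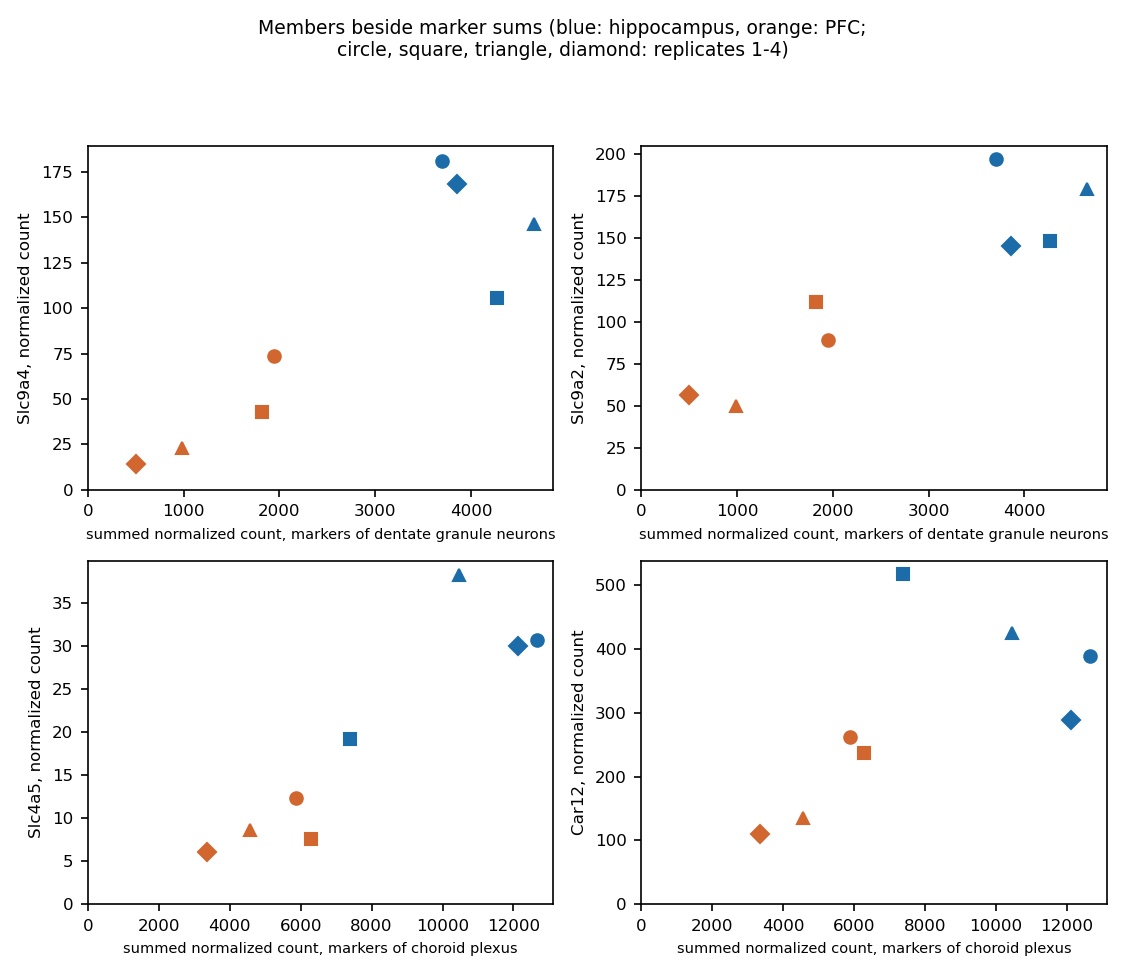
Normalized count of 4 members (vertical axes) against the summed normalized count of marker genes in the same library (horizontal axes): Slc9a4 and Slc9a2 beside dentate granule neuron markers, Slc4a5 and Car12 beside choroid plexus markers. Each point is a library of the hippocampus (blue) or the PFC (orange), and in PFC replicate 4 the dentate sum was 500.3 and Slc9a4 was 14.1. In hippocampus replicate 1 the dentate sum was the lowest of that region, 3699, while Slc9a4 and Slc9a2 were at their highest. In hippocampus replicate 2 the choroid plexus sum was the lowest of that region, 7377, while Car12 was at its highest, 519.

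Astrocyte markers were called for 1 of 10 genes, with sums of 74343 to 82713 in the hippocampus and 61409.9 to 70369 in the PFC, and Slc1a2 and Aldoc, the most abundant, did not pass. Markers of microglia, endothelial cells, pericytes and red blood cells gave no call in either direction, and those of the leptomeninges gave 1 of 6 in the hippocampus. Olfactory bulb markers were called higher in the PFC for 3 of 5 genes and interneuron markers for 1 of 6.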

How the data were processed

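Total RNA was depleted of ribosomal RNA, copied into cDNA from random hexamers and from primers to the poly A tail, amplified by SPIA and sequenced on an Illumina Genome Analyzer IIx as 75-base reads. The authors trimmed reads at Phred 28 (FastX-Toolkit 0.0.13), aligned to the NCBIM37 genome by TopHat2 2.0.9, obtained reads for each gene name without regard to strand by HTSeq 0.6.0, and scaled each library by its DESeq size factor. Neither the DESeq version nor the annotation release is given in the sources used here. The deposited values, a signal per gene and library, are these normalized counts. Cufflinks FPKM values were not used.

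Multiplied by its size factor (0.433 to 2.31), every value (100%) was within 1e-06 of a whole read. Regions were compared with limma 3.58.1 (trend, two-sided) on log2(normalized count + 1) over genes with a mean of at least 1, and adjustment was by Benjamini and Hochberg with a threshold of 0.05. As alternatives, edgeR 4.0.16 and DESeq2 1.42.0 were run on the recovered reads. Other scalings, pseudocounts, filters, sample weights, a replicate block and the removal of each library were tried. Genes were placed and measured with GENCODE M1, in which all 48 members were found. Values per library were given for members past the threshold, for the most abundant member of each role where it is reported, and for Slc12a2, Slc12a5, Car2 and Slc4a4. Those of Car13 were added after its values were seen. Up to 3 genes of each pathway list and the most abundant pair of each marker list were also named where a result touched them. Results that rest on some genes are not reported here, though these genes remain in the counts. The members and lists were chosen with earlier results of these data known. R was 4.3.3, Python 3.11.15 and Biopython 1.88.

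Replicate numbers are shared between regions, and whether they mark shared pools is not stated. Same-numbered libraries deviated from their region means with correlations of -0.13, -0.086, 0.029 and 0.019, and no library correlated best with its own number. These correlations cannot decide whether pools were shared, because the deviations also carry counting error and other differences between libraries.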

Additional observations from a re-analysis of the deposited data

Results flagged for a closer look

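In 6 of 84 groups of 4 libraries (42 members in each region), 1 library stood apart from the other 3 by more than Dixon's 95% limit. For normally distributed values chance gives about 1 in 20 groups. That rate does not hold for groups with few reads, such as Slc12a1 below, so the count of flagged groups cannot be judged against it. Car13 reached 31.5 normalized counts in PFC replicate 3, with the other PFC libraries at 14.8 to 16.9. In the same library Car2 was at 1043, against 947 to 963 in the rest. Car4 was at 210.2 in hippocampus replicate 4, against 168 to 174. Slc12a1 had 2.10 (4 reads) in hippocampus replicate 3 and 0 in the other hippocampus libraries. Slc12a9 was at 131 in hippocampus replicate 2, against 183 to 193 elsewhere in that region. Slc9a3r1 reached 299 in PFC replicate 4, against 269 to 270.5.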

How the results depend on the processing

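All 10 member calls were kept under TMM scaling, quantile normalization, pseudocounts of 0.5 and 5, no filter beyond 1 read, a mean of at least 10, edgeR, DESeq2, array weights, and PFC replicates 1 and 2 left out (chosen after seeing the data). A pseudocount of 5 added Car13, DESeq2 added Slc4a3, and array weights added Car11, Car2 and Slc4a3, which made 5 members higher in the PFC in place of 3 and 2441 genes called in place of 1124. With the replicate number as a block in limma, 9 of the 10 calls were kept, Slc12a5 had an adjusted p of 0.053, 2 members were higher in the PFC and 729 genes were called. With each library left out in turn, 6 to 8 members were higher in the hippocampus, 2 to 6 in the PFC, and 575 to 2224 genes were called. The lowest gene counts came without PFC replicate 3 (575) and PFC replicate 4 (578), which lost Slc12a2 and Slc12a5, and without hippocampus replicate 3 (668), which lost Slc12a5 and Slc4a5. The highest came without hippocampus replicate 2 (2224), which added Car11, Car13, Car2 and Slc4a3. Without hippocampus replicate 1 Car13 was added and without PFC replicate 2 Slc4a3. The cause of these changes was not tested.

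Changes of sign were seen only in members that were not called. The log2 fold changes of these members were as follows: with edgeR Car15 was -0.050, Car3 was -0.49, Slc4a11 was -0.27, Slc9a3 was 0.32, Slc9a3r2 was 0.0018. With DESeq2 Car15 was -0.021. With array weights Car15 was -0.29, Car3 was -0.22, Car5b was 0.10, Slc12a7 was -0.13, Slc12a9 was 0.012, Slc4a11 was -0.11, Slc4a1ap was 0.017, Slc4a9 was -0.15, Slc9a3 was 0.22, Slc9a7 was 0.031. With quantile normalization Car3 was -0.12, Slc9a3 was 0.24. With a pseudocount of 5 Car3 was -0.047, Slc4a11 was -0.0041, Slc9a3 was 0.022. With PFC replicates 1 and 2 left out Slc12a9 was 0.0080, Slc4a11 was -0.22, Slc9a3r2 was 0.041. With TMM scaling Slc9a3 was 0.0091. With each library left out in turn the ranges were Car14 -0.068 to 0.34, Car15 -0.22 to 0.29, Car3 -0.59 to 0.35, Car5b -0.33 to 0.092, Slc12a4 -0.16 to 0.41, Slc12a7 -0.051 to 0.25, Slc12a9 -0.27 to 0.027, Slc4a1 -0.12 to 0.43, Slc4a11 -0.51 to 0.65, Slc4a1ap -0.12 to 0.016, Slc4a2 -0.0095 to 0.22, Slc4a9 -0.073 to 0.50, Slc9a3 -0.39 to 0.63, Slc9a3r2 -0.15 to 0.11, Slc9a7 -0.10 to 0.077, Slc9a8 -0.14 to 0.068. Genes with few reads were limited by depth, and for them a difference could not be shown.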
